A study of Rattus norvegicus with 18 samples.

Results

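The genes described here encode subunits of the phagocyte NADPH oxidase, the superoxide dismutases and catalase. They were the 9 genes Cybb, Cyba, Ncf1, Ncf4, Rac2, Sod1, Sod2, Sod3 and Cat, picked by symbol from the deposited gene tables, and all 9 were listed in both cell types, among 17307 genes in the astrocyte tables and 17327 in the microglia tables. RNA sequencing was performed on wild type primary astrocytes and microglia from the cortex of neonatal Sprague-Dawley rats, kept for 24 h without fibrils (control), with Aβ42 fibrils or with Aβ40 fibrils. Each of the 6 groups held 3 libraries, 18 in all. The microglia were shaken off mixed glial cultures and the astrocytes were the layer that stayed attached. The labels do not say whether replicates came from separate cultures, so the p-values measure only the spread between these libraries.

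The phagocyte oxidase is a membrane enzyme that moves electrons from NADPH to oxygen and makes superoxide. Cybb encodes its catalytic subunit (gp91phox, or NOX2) and Cyba the membrane partner p22phox, which also holds other NOX enzymes in place. Ncf1 encodes the cytosolic organizer p47phox, Ncf4 the phosphoinositide-binding subunit p40phox, and Rac2 the small GTPase that completes the active complex in blood-lineage cells. In the brain the complex is known chiefly from microglia. Superoxide dismutases turn superoxide into hydrogen peroxide: Sod1 works in the cytosol with copper and zinc, Sod2 in mitochondria with manganese, and Sod3 outside the cell. Cat encodes catalase, the peroxisomal enzyme that splits hydrogen peroxide.

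The members with the strongest responses were Sod2 and Cybb, so the start of each is shown. RefSeq's table of promoters, on build GRCr8, held 6 of the 9 members (Cybb, Cyba, Ncf1, Sod1, Sod2 and Cat), each as 300 bases running from 250 bases before the start site to 50 after it. These coordinates belong to GRCr8, not to rn5, the build the counts were made on. Capitals mark the SP1 box GGGCGG in Sod2 and the PU.1 core GAGGAA, here on the opposite strand, in Cybb.
Sod2, chr1:50050119-50050418, minus strand: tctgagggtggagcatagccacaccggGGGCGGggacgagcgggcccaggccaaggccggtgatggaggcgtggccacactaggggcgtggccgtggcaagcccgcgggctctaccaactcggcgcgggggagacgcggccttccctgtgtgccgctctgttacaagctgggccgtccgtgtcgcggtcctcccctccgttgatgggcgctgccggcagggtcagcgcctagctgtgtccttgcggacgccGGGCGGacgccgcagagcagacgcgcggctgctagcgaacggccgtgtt
Cybb, chrX:16065016-16065315, minus strand: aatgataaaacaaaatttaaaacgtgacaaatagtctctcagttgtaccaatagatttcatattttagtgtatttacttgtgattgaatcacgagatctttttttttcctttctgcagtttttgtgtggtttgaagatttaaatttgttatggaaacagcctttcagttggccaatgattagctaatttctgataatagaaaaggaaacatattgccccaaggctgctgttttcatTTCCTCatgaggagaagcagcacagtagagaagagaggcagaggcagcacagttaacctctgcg
The Sod2 window was rich in G and C (72% of bases, 36 CpG dinucleotides) and the Cybb window poor (35.7%, 3 CpG), against medians of 51.7% and 7 over all 33469 promoters in the table. Both strands were searched for 6 motifs. Sod2 held 2 SP1 boxes, whose leftmost bases stood at positions -223 and 2 from the start site, and 1 antioxidant response element core (TGACNNNGC) at -35. Cybb held 1 PU.1 core at -14 and 1 AP-1 site (TGANTCA) at -166. Neither held the TATA box TATAAA or the κB motif. Over all promoters, 33.1% held the SP1 box, 27.6% the PU.1 core, 12.1% the antioxidant core, 7.33% the AP-1 site, 14.2% the TATA box and 4.18% the κB motif. These matches describe the letters in the window and were not tested for binding.

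The libraries held between 2271834 and 22274367 counts on genes. Levels are given as CPM, counts scaled to a common library size, after TMM scaling within a cell type, and a gene was called changed when edgeR's quasi-likelihood test gave a Benjamini-Hochberg adjusted p under 0.05 over all genes tested. In the astrocyte cultures 12 microglial markers summed to 427 to 566 CPM in controls, and 10 astrocyte markers to 10102 to 12649 CPM. In the microglia cultures the microglial markers summed to 6749 to 7983 CPM in controls and the astrocyte markers to 1338 to 1514 CPM. Each cell type carried its own markers at the higher sum. Of the astrocyte markers in control microglia, Glul, the glutamine synthetase, made up 1135 CPM on average, while Gfap and Aqp4 stood at 36.9 and 16.2 CPM, against 2839 and 1497 CPM in control astrocytes. With fibrils the astrocyte markers summed to 7296 to 8221 CPM in astrocyte cultures, where 6 of 10 fell with either fibril and 2 rose with Aβ42 and 3 with Aβ40, and to 814 to 984 CPM in microglia cultures, where 2 of the 9 testable fell and 3 rose with either fibril. Neutrophil markers, of interest because neutrophils use the same oxidase, summed in astrocyte cultures to 4.31 to 5.70 CPM in controls and 6.03 to 8.65 CPM with fibrils. In microglia cultures they summed to 1.74 to 2.71 CPM in controls, 38.0 to 54.3 CPM with Aβ42 and 46.5 to 57.9 CPM with Aβ40, and the 3 of 7 that could be tested (S100a8, S100a9 and Cd177) rose with either fibril, while Mpo and Elane were at the detection limit in every microglia group. In astrocyte cultures the oligodendrocyte lineage genes summed to 1725 to 2573 CPM in controls and 1272 to 1372 CPM with fibrils. There the neuronal genes summed to 127 to 170 and 55.6 to 72.3 CPM, the fibroblast and mural genes to 429 to 458 and 316 to 388 CPM, and the endothelial genes to no more than 11.5 CPM. In microglia cultures, controls against fibril-treated libraries, the sums were 1963 to 2167 against 2180 to 2833 CPM for the oligodendrocyte lineage, 248 to 263 against 263 to 356 CPM for neurons, 169 to 202 against 185 to 227 CPM for fibroblast and mural cells, and 186 to 190 against 42.1 to 114 CPM for endothelial cells. A pair of libraries stood apart from their groups. Astrocyte control replicate 2 had 34.2% of its counts not assigned to a gene (no gene or ambiguous), against 26.0% to 28.9% in the other astrocyte libraries. Microglia Aβ42 replicate 1, with 2613723 counts, gave the 2 highest chi-square values per degree of freedom of the microglia pairs (22.9 and 22.4). The value between the other 2 Aβ42 libraries of microglia was 7.66.

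**Figure D1:**
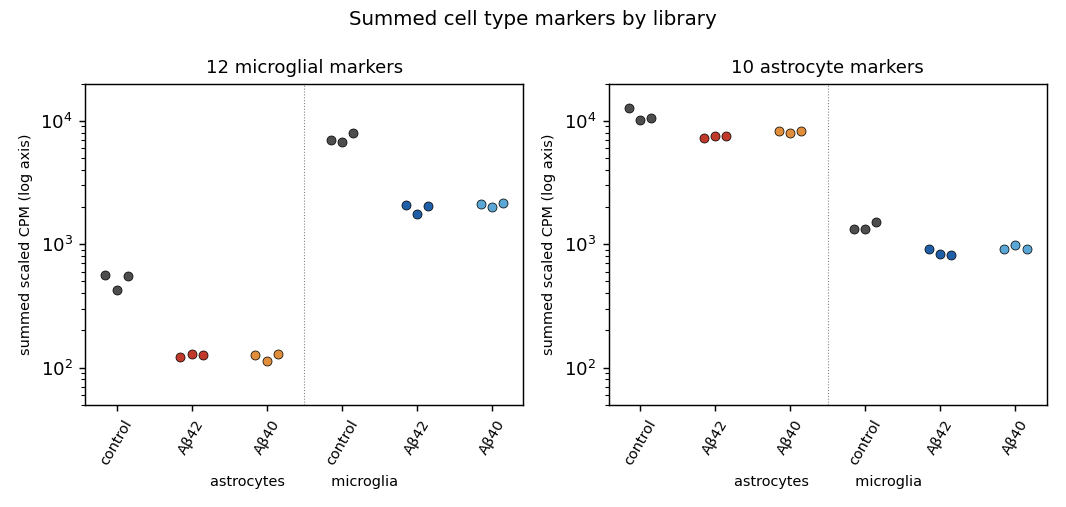
Summed scaled CPM (log axis) of 12 microglial markers (left) and 10 astrocyte markers (right), 1 point per library, by cell type and treatment. Microglial markers sat at 427 to 566 CPM in control astrocyte cultures and at 113 to 130 CPM in the fibril-treated ones.

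In untreated cells the oxidase genes were far higher in microglia and the dismutases were mixed. All 5 oxidase members and Sod2 were higher in microglia than in astrocytes, Sod3 was lower, and Sod1 and Cat did not pass the test. Over all genes 34.2% were called higher and 34.5% lower in this comparison, which was fitted on all 18 libraries. Cybb was 88.0-fold higher (log2 6.46 ± 0.21 SE, adjusted p = 6.18e-15), Ncf4 34.1-fold, Rac2 27.2-fold, Ncf1 15.9-fold and Cyba 11.7-fold higher. Sod2 was 6.45-fold higher (log2 2.69 ± 0.12 SE, adjusted p = 1.77e-13) and Sod3 2.29 times lower (log2 -1.20 ± 0.24 SE, adjusted p = 0.000207). Sod1 differed by -0.24 on the log2 scale (95% interval -0.52 to 0.04) and Cat by -0.41 (-0.91 to 0.09). The 2 cell types were deposited in separate tables, and the sources used here do not say whether their libraries were made together. Scaling by library totals in place of TMM moved the median of all genes by -0.28 and the share of calls that were higher from 49.8% to 37.4%, and Sod1 (-0.51, adjusted p = 0.00204) and Cat (-0.68, adjusted p = 0.0141) were then called lower. Leaving out astrocyte control replicate 3 also called both lower, at -0.39 (adjusted p = 0.0112) for Sod1 and -0.59 (adjusted p = 0.0448) for Cat.

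In microglia the catalytic subunit fell while cytosolic subunits rose. With Aβ42 fibrils 6 of the 9 members rose (Ncf1, Ncf4, Rac2, Sod1, Sod2 and Sod3), 2 fell (Cybb and Cyba) and Cat did not pass the test, where 27.1% of all 10837 genes tested rose and 26.6% fell. With Aβ40 fibrils 5 rose (Ncf1, Ncf4, Rac2, Sod2 and Sod3), 2 fell (Cybb and Cyba) and Sod1 and Cat did not pass, against 19.6% and 21.4% of all genes. The 2 comparisons share the control libraries. At 5-fold or more, Sod2 rose and Cybb fell with Aβ42, where 3.69% of all genes rose and 2.57% fell so far, and no member reached it with Aβ40, against 3.36% and 2.47%. Treated and control libraries did not overlap for 8 of the 9 with Aβ42 (54.0% of all genes) and 9 of 9 with Aβ40 (59.5%).

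Cybb stood at 659.9, 658 and 719 CPM in the control microglia, at 127, 88.6 and 116 CPM with Aβ42 and at 157, 160.4 and 161 CPM with Aβ40. All 3 groups were separate, and the Aβ42 libraries were the lowest. Cybb thus fell 6.19 times with Aβ42 (log2 -2.63 ± 0.13 SE, adjusted p = 1.09e-08) and 4.26 times with Aβ40 (log2 -2.09 ± 0.13 SE, adjusted p = 9.2e-08). With any 1 library of the compared groups left out, the log2 value of Cybb lay between -2.74 and -2.48 and between -2.10 and -2.03. Between the fibrils Cybb was lower with Aβ42 (log2 -0.54 ± 0.13 SE, adjusted p = 0.0229), the one member called of 9, where 9.01% of all genes were called lower and 11.3% higher. That call was lost without any single library of the fibril groups other than Aβ42 replicate 1 (adjusted p = 0.0723 to 0.0937). It was also lost with only the compared groups fitted (adjusted p = 0.0732). In these bulk samples fewer cells of a type and less RNA per cell cannot be told apart. Microglial markers also moved in these cultures, from 6749 to 7983 CPM in controls to 1749 to 2066 CPM with Aβ42 and 1993 to 2151 CPM with Aβ40. Of the 12, 10 fell and 1 rose with Aβ42, and 11 fell and 1 rose with Aβ40; Itgam, an integrin of myeloid cells, was the one that rose (log2 0.90 and 1.04). The part of this movement in the values of Cybb was not tested.

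Cyba, the membrane partner, moved little in microglia. It read 447, 465 and 489 CPM in controls, 375, 350.2 and 406 CPM with Aβ42 and 301, 346 and 373 CPM with Aβ40, so that controls lay above both fibril groups. It fell by 0.31 on the log2 scale with Aβ42 (SE 0.11, adjusted p = 0.0288) and by 0.46 with Aβ40 (SE 0.11, adjusted p = 0.00461). The Aβ42 call was lost without any 1 control library (adjusted p = 0.0648 to 0.121), without Aβ42 replicate 2 (0.116) and with only the compared groups fitted (0.0528).

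Among the oxidase members, Ncf4 had the strongest rise in microglia. Its level was 180.0, 131 and 166 CPM in controls, 451, 414 and 461 CPM with Aβ42 and 489.9, 489.8 and 479.9 CPM with Aβ40. No control library came near the treated ones. The rise was 2.77-fold with Aβ42 (log2 1.47 ± 0.12 SE, adjusted p = 7.99e-07) and 3.06-fold with Aβ40 (log2 1.61 ± 0.12 SE, adjusted p = 4.54e-07). Rac2 read 939, 749 and 1031 CPM in controls, 1794, 1326 and 1503 CPM with Aβ42 and 1447, 1626 and 1835 CPM with Aβ40. It rose 1.70-fold (log2 0.76 ± 0.15 SE, adjusted p = 0.00105) and 1.80-fold (log2 0.85 ± 0.15 SE, adjusted p = 0.000604). Ncf1, the organizer, rose least, from 634, 578 and 584 CPM to 773, 788 and 805 CPM with Aβ42 and 706, 704 and 744 CPM with Aβ40. These are log2 differences of 0.40 ± 0.09 SE (adjusted p = 0.00254) and 0.26 ± 0.09 SE (adjusted p = 0.0331). The neutrophil markers given above rose in the same cultures, and their part in the rises of Ncf4, Rac2 and Ncf1 was not tested. The Aβ40 call for Ncf1 was lost without control replicate 2 or 3, without any 1 Aβ40 library (adjusted p = 0.0754 to 0.0973 over these) and without a filter on low counts (0.0642).

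**Figure D2:**
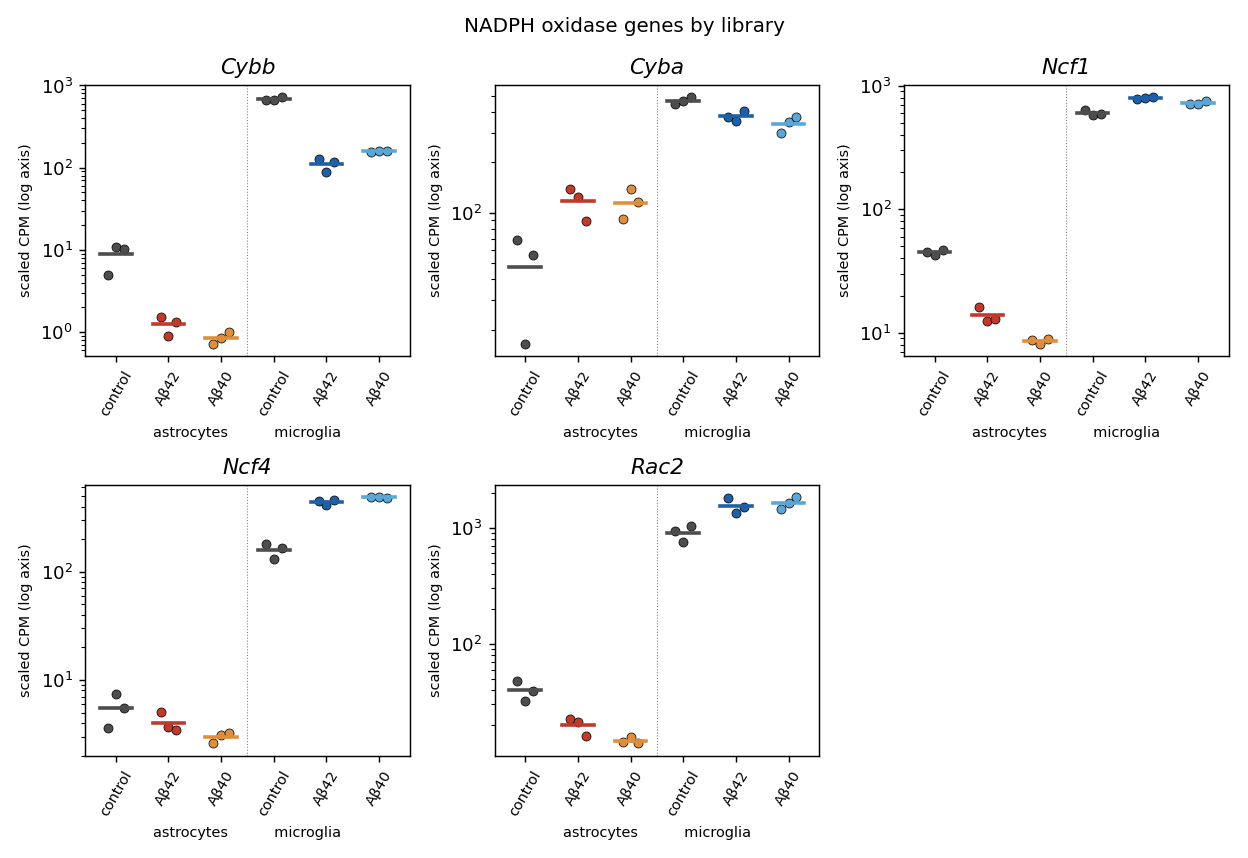
Scaled CPM (log axis, TMM within each cell type) of the 5 oxidase members in every library, with a bar at the mean of each group of 3. In microglia Cybb dropped from 658 to 719 CPM in controls to 88.6 to 127 CPM with Aβ42 while Ncf4 rose from 131 to 180.0 CPM to 414 to 461 CPM.

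Among the dismutases of microglia, Sod2 rose most. It stood at 543, 457 and 480.3 CPM in controls, 2549, 2297 and 2592 CPM with Aβ42 and 2151, 2139 and 2387 CPM with Aβ40. Every treated library lay far above every control. The rise was 5.02-fold with Aβ42 (log2 2.33 ± 0.11 SE, adjusted p = 6.05e-09) and 4.51-fold with Aβ40 (log2 2.17 ± 0.11 SE, adjusted p = 1.35e-08), and the fibrils differed by 0.16 on the log2 scale (95% interval -0.07 to 0.38). With any 1 library of the compared groups left out, the log2 value stayed between 2.29 and 2.42 with Aβ42 and between 2.12 and 2.27 with Aβ40. RefSeq lists a pseudogene, Sod2-ps1, and how the counting treated reads that fit both is not given in the sources used here, so the absolute level of Sod2 is uncertain to that extent.

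Sod1 rose in microglia with Aβ42, from 217, 167 and 210.3 CPM to 299, 286 and 297 CPM (log2 0.57 ± 0.12 SE, adjusted p = 0.00144). With Aβ40 it read 259, 246 and 221 CPM, a difference of 0.29 (95% interval 0.03 to 0.54, adjusted p = 0.0679) that was called only when the compared groups were fitted alone (0.0208). Sod3 stood at 126, 139.9 and 124 CPM in controls, 332, 185 and 159 CPM with Aβ42 and 264, 257 and 308 CPM with Aβ40. Aβ42 replicate 1, the library that stood apart, gave the 332. Sod3 rose by 0.78 on the log2 scale with Aβ42 (SE 0.22, adjusted p = 0.0106), by 0.40 without that library (adjusted p = 0.00157), and by 1.09 with Aβ40 (SE 0.22, adjusted p = 0.00179).

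Catalase in microglia rested on that same library. Cat read 208, 241 and 230.3 CPM in controls, 256, 113 and 96.4 CPM with Aβ42 and 167, 187 and 200.4 CPM with Aβ40. Aβ42 replicate 1 was above every control, and the other 2 Aβ42 libraries were below every other library of the cell type. The Aβ42 difference was -0.59 on the log2 scale (95% interval -1.20 to 0.02, adjusted p = 0.0955) with all libraries and -1.12 (adjusted p = 6.52e-08) without replicate 1. For Aβ40 it was -0.30 (95% interval -0.91 to 0.32, adjusted p = 0.436), and fitting only those 2 groups called it (adjusted p = 0.0121). Without replicate 1 the fibrils also differed in Sod3 (-0.68, adjusted p = 4.16e-05), in Cat (-0.82, adjusted p = 1.02e-05) and in Sod1 (0.26, adjusted p = 0.0449), so that 3 members were lower and 1 higher with Aβ42 than with Aβ40.

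**Figure D3:**
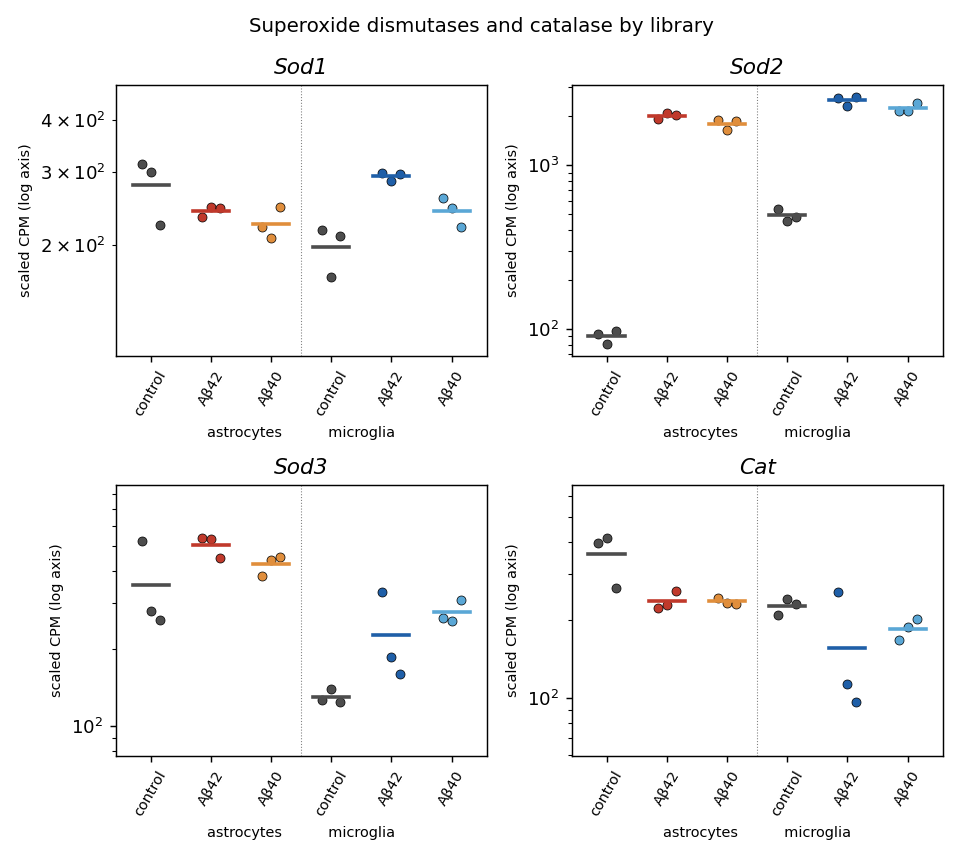
Scaled CPM (log axis, TMM within each cell type) of the superoxide dismutases and catalase in every library, with a bar at the mean of each group of 3. Sod2 rose from 81.4 to 97.6 CPM in control astrocytes to 1643 to 2071 CPM with fibrils, and Aβ42 replicate 1 of the microglia stood apart in Sod3 (332 CPM) and Cat (256 CPM).

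In astrocyte cultures Sod2 had the largest fibril response of the 9 members, and most oxidase members fell. With Aβ42 fibrils 2 members rose (Sod2 and Cyba), 4 fell (Cybb, Ncf1, Rac2 and Cat) and Ncf4, Sod1 and Sod3 did not pass the test, where 16.5% of all 11690 genes tested rose and 20.4% fell. With Aβ40 fibrils the same 2 rose, Cybb, Ncf1, Ncf4, Rac2 and Cat fell and Sod1 and Sod3 did not pass, against 14.9% and 18.4% of all genes. At 5-fold or more, Sod2 rose and Cybb fell with Aβ42 (3.03% and 3.24% of all genes), and Sod2 rose and Cybb and Ncf1 fell with Aβ40 (2.82% and 2.60%). Treated and control libraries did not overlap for 6 of the 9 members with Aβ42 (45.7% of all genes) and 7 with Aβ40 (43.2%). Between the fibrils 0 of the 9 were called by edgeR, where 0.0855% of all genes were. Ncf1 had an adjusted p of 0.139 in edgeR (log2 0.70). DESeq2 called Ncf1 alone, higher with Aβ42 (log2 0.71, adjusted p = 0.00741), as did the fit of only those groups (0.71, adjusted p = 0.0295).

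Sod2 stood at 93.5, 81.4 and 97.6 CPM in control astrocytes, 1912, 2071 and 2023 CPM with Aβ42 and 1878, 1643 and 1848 CPM with Aβ40. The rise was 22.0-fold with Aβ42 (log2 4.46 ± 0.13 SE, adjusted p = 2.93e-09) and 19.7-fold with Aβ40 (log2 4.30 ± 0.13 SE, adjusted p = 4.78e-09). The log2 change of Sod2 was above that of 98.9% of all genes tested with either fibril. With any 1 library of the compared groups left out, that change lay between 4.39 and 4.52 and between 4.23 and 4.36. On the scale shared by all 18 libraries, the order of Sod2 levels was microglia with Aβ42 (2783 CPM on average), microglia with Aβ40 (2471), astrocytes with Aβ42 (1900.5), astrocytes with Aβ40 (1692), control microglia (548) and control astrocytes (84.9). The 2 microglial fibril groups overlapped in range, as did the 2 astrocyte fibril groups, and the other neighbours did not.

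Cybb was sparse in astrocyte cultures, with 18, 46 and 148 counts in controls, 22, 9 and 11 with Aβ42 and 7, 16 and 15 with Aβ40. In CPM these were 5.01, 11.01 and 10.4, then 1.51, 0.910 and 1.32, and then 0.727, 0.856 and 0.996. The groups treated with fibrils lay below all controls. Cybb fell 7.12 times with Aβ42 (log2 -2.83 ± 0.32 SE, adjusted p = 4e-05) and 10.3 times with Aβ40 (log2 -3.37 ± 0.32 SE, adjusted p = 1.26e-05). Ncf1 went from 45.1, 42.6 and 46.7 CPM to 16.3, 12.5 and 12.9 CPM with Aβ42 and 8.73, 8.18 and 8.90 CPM with Aβ40 (log2 -1.68 ± 0.15 SE, adjusted p = 5.5e-06, and -2.38 ± 0.15 SE, adjusted p = 6e-07). Rac2 went from 48.1, 32.3 and 39.0 CPM to 22.3, 21.3 and 16.1 CPM and to 14.1, 15.9 and 13.9 CPM (log2 -0.99 ± 0.18 SE, adjusted p = 0.00135, and -1.44 ± 0.18 SE, adjusted p = 0.000118). Ncf4 read 3.62, 7.42 and 5.49 CPM in controls, 5.01, 3.64 and 3.48 CPM with Aβ42 and 2.60, 3.10 and 3.25 CPM with Aβ40. Its difference was -0.43 with Aβ42 (95% interval -1.0 to 0.14, adjusted p = 0.223) and -0.88 with Aβ40 (adjusted p = 0.0232), and the second call was lost without control replicate 3 or without any 1 Aβ40 library (adjusted p = 0.0516 to 0.0741).

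Microglial markers fell in the same astrocyte cultures, from 427 to 566 CPM in controls to 122 to 130 CPM with Aβ42 and 113 to 129 CPM with Aβ40. Of the 12 markers 11 fell with either fibril and 1 did not pass the test, the median log2 change of the list was -4.15 and -4.27, against -0.005 and 0.002 over all genes tested, and Cx3cr1 reached the detection limit. The part of these cells in the fall of Cybb, Ncf1, Rac2 and Ncf4 was not tested.

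Cyba went the other way in astrocytes. It stood at 69.0, 16.5 and 56.1 CPM in controls, 139, 124 and 89.0 CPM with Aβ42 and 91.0, 138 and 115 CPM with Aβ40, above every control. The low control was replicate 2, the library with the largest share of counts not assigned to a gene. Cyba rose 2.48-fold with Aβ42 (log2 1.31 ± 0.39 SE, adjusted p = 0.0223) and 2.43-fold with Aβ40 (log2 1.28 ± 0.39 SE, adjusted p = 0.0269). Without control replicate 2 the log2 values for Cyba were 0.93 (adjusted p = 0.00203) and 0.90 (adjusted p = 0.00276). The calls were lost without Aβ42 replicate 1 (adjusted p = 0.0677) or 2 (0.0596), without Aβ40 replicate 2 (0.0868) or 3 (0.0641), and for Aβ40 with only the compared groups fitted (0.0509).

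Of the other enzymes in astrocytes, Cat fell from 396, 412 and 266 CPM to 221, 229 and 257 CPM with Aβ42 and 243, 232 and 231 CPM with Aβ40. Control replicate 3 was close to the treated libraries. The log2 differences were -0.60 ± 0.16 SE with either fibril (adjusted p = 0.0123 and 0.0133), and both were lost without control replicate 1 (-0.51 in each, adjusted p = 0.0546 and 0.0559), the first also without Aβ42 replicate 1 (0.0611) or 2 (0.0523) and the second also without Aβ40 replicate 2 (0.0533) or 3 (0.0603). Sod1 read 314, 299.7 and 224 CPM in controls, 233, 247 and 245 CPM with Aβ42 and 221, 207 and 247 CPM with Aβ40. It did not pass the test (log2 -0.20, 95% interval -0.52 to 0.11, and -0.31, -0.62 to 0.005), except without control replicate 3, when it was called lower (-0.34, adjusted p = 0.0352, and -0.45, adjusted p = 0.0124). Sod3 read 523, 281 and 259.5 CPM in controls, 537, 532 and 448 CPM with Aβ42 and 382, 442 and 453 CPM with Aβ40. The first control library was near the treated ones, and the differences of 0.52 (95% interval 0.0006 to 1.03, adjusted p = 0.111) and 0.27 (-0.25 to 0.78, adjusted p = 0.414) did not pass. Without that library Sod3 rose by 0.92 (adjusted p = 0.000511) and 0.67 (adjusted p = 0.00351).

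**Figure D4:**
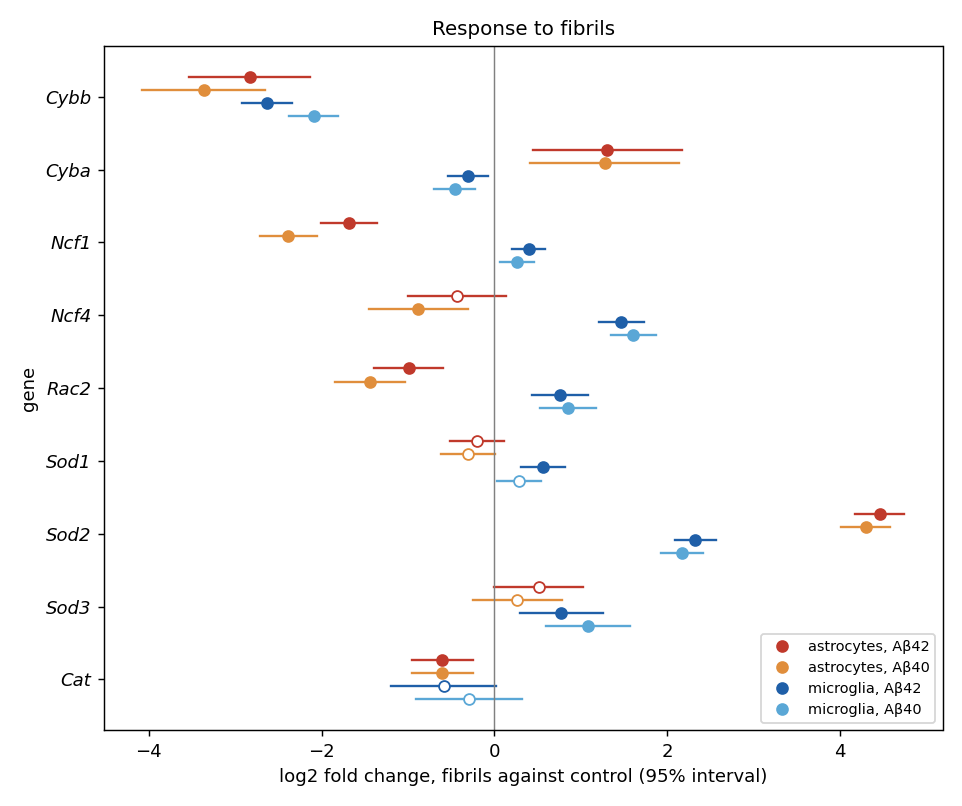
Log2 fold change of each member with fibrils against control (horizontal axis) with its 95% interval, for both fibrils in both cell types. Filled circles passed the adjusted p of 0.05 and open circles did not. Sod2 rose in both cell types (2.17 to 4.46) and Cybb fell in both (-3.37 to -2.09), while Ncf1 and Rac2 fell in astrocytes and rose in microglia.

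The difference between the cell types in response was tested in the fit of all 18 libraries. For Aβ42, 6 of the 9 members differed (4 with a higher response in microglia, where 19.3% of all 11581 genes were, and 2 with a lower one, where 17.9% were). For Aβ40, 7 did (5 higher, against 16.0% of all genes, and 2 lower, against 16.5%). Ncf1, Ncf4 and Rac2 responded higher in microglia with either fibril, by 1.74 to 2.63 on the log2 scale. Sod2 rose less in microglia, by a log2 difference of -2.14 ± 0.15 SE for each fibril (adjusted p = 3.84e-09 and 4.48e-09), from a control level 6.45-fold higher. For Cybb the Aβ42 response did not differ detectably between the cell types (0.20, 95% interval -0.46 to 0.87, adjusted p = 0.629), whereas the Aβ40 response did (1.26 ± 0.32 SE, adjusted p = 0.00412). The Sod3 and Cat differences did not pass for either fibril (Sod3 0.25, 95% interval -0.45 to 0.95, and 0.80, 0.10 to 1.51; Cat 0.0045, -0.71 to 0.72, and 0.29, -0.42 to 1.01). The Sod3 difference for Aβ40 was called without astrocyte control replicate 2 (0.94, adjusted p = 0.0299) or 3 (0.99, adjusted p = 0.0248) and was 0.44 (adjusted p = 0.268) without astrocyte control replicate 1.

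Further parts of the oxidase were read from a list of 20 genes. In astrocytes 14 could be tested, of which 3 rose and 4 fell with Aβ42 (16.5% and 20.4% of all genes) and 4 rose and 4 fell with Aβ40 (14.9% and 18.4%). In microglia 10 could be tested, with 3 higher and 2 lower with Aβ42 (27.1% and 26.6% of all genes) and 1 higher and 2 lower with Aβ40 (19.6% and 21.4%). The list medians were 0.21 and 0.08 in astrocytes and -0.07 and 0.02 in microglia on the log2 scale, beside medians between -0.005 and 0.010 over all genes tested.

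Noxo1, the NOX organizer related to p47phox, rose from very few counts in both cell types. It had 2, 0 and 6 counts in control astrocytes, 582, 389 and 271 with Aβ42 and 274, 702 and 517 with Aβ40. In microglia it had 1, 1 and 2 counts in controls, 36, 450 and 313 with Aβ42 and 88, 101 and 47 with Aβ40. The ratio of pooled scaled counts of Noxo1 was 104 (95% exact interval 52.7 to 242) and 94.6 (47.9 to 219.5) in astrocytes and 93.7 (36.4 to 345) and 111 (42.6 to 409) in microglia, intervals that cover counting error only. All 4 rises were called (adjusted p = 1.03e-07, 1.41e-07, 5.65e-09 and 5.83e-09). Nox1, whose enzyme NOXO1 is known to serve, had at most 12 counts in any library and fell below the filter. Nox3 had 0 counts in all 18 libraries, which allows up to 3 counts in each. Nox4 could be tested in astrocytes only, where its differences of -1.03 (adjusted p = 0.0593) and -0.82 (adjusted p = 0.109) did not pass, and it had at most 2 counts in any microglia library.

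In astrocytes the listed genes that rose with both fibrils, beside Noxo1, were Cybc1, which encodes a chaperone of the gp91phox and p22phox pair (log2 0.83 and 0.82), and Prkcd, a kinase that can phosphorylate p47phox (0.72 and 0.56). Cybc1 was not among the genes listed in microglia, so its response there is not known. In astrocytes the listed genes that fell furthest were Arhgdib (-2.28 and -3.10) and Vav1 (-1.98 and -2.55). Arhgdib encodes an inhibitor that holds Rac and related GTPases in blood-lineage cells, and Vav1 a Rac exchange factor. Both moved alongside the microglial markers given above, and the part of those cells in them was not tested. In microglia Prex1, another Rac exchange factor (-0.65 and -0.62), and Vav1 (-0.56 and -0.35) fell. Vav1 with Aβ40 lost its call without control replicate 1 or 3 or Aβ40 replicate 1 or 2 (adjusted p = 0.0526 to 0.0956).

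Hydrogen peroxide, the product of the dismutases, is also removed by peroxiredoxins, glutathione peroxidases and the thioredoxin system. Of 16 such genes, all testable in astrocytes, 4 rose and 2 fell with Aβ42 (16.5% and 20.4% of all genes) and 2 rose and 2 fell with Aβ40 (14.9% and 18.4%). In microglia 15 were testable, of which 9 rose and 2 fell with Aβ42 (27.1% and 26.6% of all genes) and 6 rose and 2 fell with Aβ40 (19.6% and 21.4%). The log2 medians were 0.13 and 0.13 in astrocytes and 0.42 and 0.08 in microglia, beside medians between -0.005 and 0.010 over all genes tested. In microglia the strongest rises were those of Srxn1, the sulfiredoxin that restores overoxidized peroxiredoxins, Prdx5, a peroxiredoxin of mitochondria and peroxisomes, and Txn1, thioredoxin. Srxn1 went from 17.1, 14.5 and 13.0 CPM to 132, 178 and 169 CPM with Aβ42 and 87.1, 76.5 and 71.2 CPM with Aβ40 (log2 3.43 ± 0.16 SE, adjusted p = 5.12e-09, and 2.40 ± 0.16 SE, adjusted p = 1.53e-07). Prdx5 rose by 3.12 and 2.73 and Txn1 by 2.30 and 1.27. Gpx3, the secreted glutathione peroxidase, fell from 88.1, 74.0 and 85.9 CPM to 16.4, 11.8 and 14.9 CPM and to 14.0, 15.9 and 13.8 CPM (log2 -2.57 ± 0.14 SE, adjusted p = 2.71e-08, and -2.50 ± 0.15 SE, adjusted p = 8.73e-08). Gpx1, the cytosolic glutathione peroxidase, fell by 0.42 and 0.79; with Aβ42 its call was lost without control replicate 3 (adjusted p = 0.0911) and with only the compared groups fitted (0.0524).

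In astrocytes the changes of this list were smaller. Prdx5 rose by 0.85 and 0.78, Txnrd2, the mitochondrial thioredoxin reductase, by 0.76 and 0.66, Prdx6 fell by 0.64 and 0.62 and Prdx1 by 0.41 and 0.40 on the log2 scale. The Prdx1 calls were lost in 5 of 6 fits without 1 library for each fibril (adjusted p = 0.0598 to 0.200 over those), and those of Txnrd2 in 1 of 6 with Aβ42 (without Aβ42 replicate 2, adjusted p = 0.0716) and in 4 of 6 with Aβ40 (without control replicate 1 or any 1 Aβ40 library, 0.0630 to 0.117). With only the compared groups fitted the calls of Prdx1 with both fibrils (0.0633 and 0.112) and of Txnrd2 with Aβ40 (0.0835) were lost, and with no filter on low counts both of Prdx1 (0.0577 and 0.0715). Srxn1, by contrast with microglia, stood at 57.3 to 67.0 CPM in controls, 62.1 to 71.0 CPM with Aβ42 and 54.2 to 58.2 CPM with Aβ40 and did not pass the test (log2 0.09 and -0.13).

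**Figure D5:**
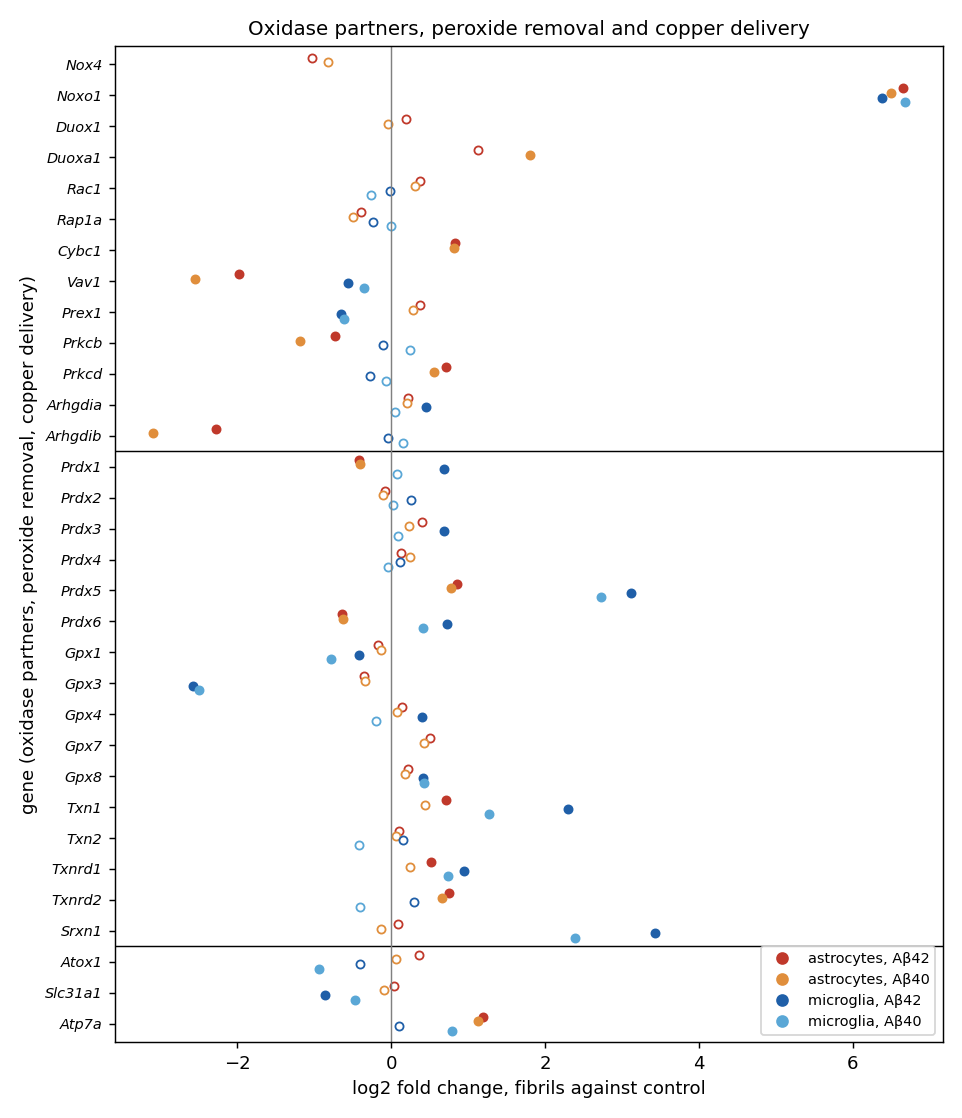
Log2 fold change with fibrils against control (horizontal axis) of the testable genes of the oxidase partner (1 left out), peroxide removal and copper delivery lists, top to bottom, for both fibrils in both cell types. Filled circles passed the adjusted p of 0.05; Noxo1 lies at 6.39 to 6.68, while Srxn1 and Prdx5 rise most of the peroxide list in microglia.

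Sod1 and Sod3 need copper, and 4 genes of copper delivery were listed, of which 3 were testable in each cell type. In astrocytes 1 rose with either fibril, where 16.5% of all genes rose with Aβ42 and 14.9% with Aβ40. It was Atp7a, the copper pump of the secretory pathway (log2 1.20 and 1.14). With Aβ40 the Atp7a call was lost without Aβ40 replicate 1 (adjusted p = 0.0642) or 3 (0.0592). In microglia 1 fell with Aβ42, where 26.6% of all genes fell. With Aβ40 1 rose (Atp7a, 0.80) and 2 fell, against 19.6% and 21.4% of all genes. Among those that fell with Aβ40 was Atox1, the copper chaperone of the Atp7a pump (-0.94). Slc31a1, the copper importer, fell with both (-0.86 and -0.47), the second lost without any control library or without Aβ40 replicate 1 or 2 (adjusted p = 0.0912 to 0.185) and with DESeq2 size factors (0.0541). Ccs, the chaperone that loads copper into SOD1, had at most 15 counts in any library and was below the filter.

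The genes most like Cybb in microglia, by the root-mean-square difference of centred log2 scaled CPM over the 9 libraries, were Trerf1 (0.14), Arhgef6 (0.15) and Dapp1 (0.16). For Sod2 in microglia they were Tnfrsf26 (0.067), Rassf4 (0.073) and Irak2 (0.12), and for Sod2 in astrocytes Slfn2 (0.13), Dhx58 (0.14) and Usp18 (0.18). These were the nearest of 10836 other genes tested in microglia and of 11689 in astrocytes.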

How the data were processed

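RNA sequencing libraries were prepared with the TruSeq Stranded mRNA kit. The count tables were deposited by the authors as raw, whole-number counts per gene and library; the submitters' processing notes name STAR, Salmon, DESeq2 and build rn5, and the strand setting and treatment of reads that fit several genes are not given in the sources used here. Rows for reads with no gene or an ambiguous one (21.7% to 34.2% of counts) were left out, and 0 columns of per-sample values were unused. Counts were fitted here over all genes with edgeR 4.0.16 (TMM, filterByExpr, quasi-likelihood test, Benjamini-Hochberg adjustment; R 4.3.3, limma 3.58.1), within each cell type (11690 and 10837 genes) or over all 18 libraries for differences between cell types (11581 genes). The test was checked on simulated data. Totals of 2271834 to 22274367 counts mean that 3 counts equal 0.130 to 1.38 CPM. All members were named; of each list, up to 3 genes per direction and cell type with the largest log2 change among those called the same way with both fibrils and with no overlap with controls, besides genes given as not called or at the detection limit. Atp7a and Atox1 in microglia, and single cell type markers, were named after their values were seen. Some listed genes are counted but not reported singly here. The members and lists were chosen with earlier results of these data known. Alternatives were DESeq2 1.42.0 (test and size factors), library totals, no filter, 10 counts in every library, fitting only the compared groups and a replicate block. For each comparison, every library of the compared groups was also left out in turn.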

Additional observations from a re-analysis of the deposited data

Results flagged for a closer look

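The difference between the cell types in response to fibrils (log2 fold change in microglia minus that in astrocytes, tested as an interaction over all 18 libraries with edgeR) passed an adjusted p of 0.05 for 13 member and fibril pairs. For Aβ42 these were Cyba at -1.62 (adjusted p = 0.00401), Ncf1 at 2.07 (adjusted p = 4.59e-09), Ncf4 at 1.89 (adjusted p = 1.18e-05), Rac2 at 1.74 (adjusted p = 7.25e-06), Sod1 at 0.76 (adjusted p = 0.00347) and Sod2 at -2.14 (adjusted p = 3.84e-09).

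For Aβ40 they were Cybb at 1.26 (adjusted p = 0.00412), Cyba at -1.75 (adjusted p = 0.00266), Ncf1 at 2.63 (adjusted p = 3.75e-10), Ncf4 at 2.47 (adjusted p = 5.74e-07), Rac2 at 2.27 (adjusted p = 3.57e-07), Sod1 at 0.58 (adjusted p = 0.0242) and Sod2 at -2.14 (adjusted p = 4.48e-09). The Sod1 difference for Aβ40 lost its call without microglia control replicate 2 (adjusted p = 0.0739) and without microglia Aβ40 replicate 1 (0.0704) or 2 (0.0558). The microglial markers fell in the astrocyte cultures as given above, and their part in these differences was not tested.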

How the results depend on the processing

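The Sod2 and Cybb calls against control held under every alternative in which the gene was tested. Cybb was not tested in astrocytes, or between the cell types, with the filter of 10 counts in every library. Of 534 member values under settings that kept all libraries, 516 kept direction and call, 6 lost a call, 7 gained one and 5 changed sign; of 594 with 1 library left out these were 535, 31, 12 and 16. All sign changes were of values that were not called, and their cause was not tested: for Cat, Aβ42 against Aβ40 in astrocytes was -0.0045 with library totals, -0.0022 with 10 counts in every library and -0.073 to 0.0594 with 1 library left out, and the Aβ42 difference between cell types was -0.0145 with no filter, -0.0708 with the replicate block and -0.4997 to 0.2457 with 1 library left out; for Cyba, Aβ42 against Aβ40 in astrocytes was -0.0049 with the block and -0.1147 to 0.1872 with 1 left out; with 1 left out, Rac2 between fibrils in microglia was -0.2113 to 0.0115 and the Aβ42 difference between cell types of Sod3 -0.0961 to 0.437. Fitting only the compared groups gave 1 member higher with Aβ40 in astrocytes, 1 higher between fibrils in astrocytes (also 1 with DESeq2), 1 lower with Aβ42 in microglia and 0 lower between fibrils in microglia; untreated microglia had 3 lower with library totals and 2 with 10 counts in every library. With 1 library left out, members called ran from 1 to 3 higher and 3 to 5 lower with either fibril in astrocytes, 1 to 3 lower with Aβ42 in microglia, 0 to 1 higher and 0 to 3 lower between fibrils in microglia, 1 to 3 lower in untreated microglia and 4 to 6 higher for the Aβ40 difference between cell types. Same-numbered libraries did not deviate together (correlations of -0.526 to 0.358 in astrocytes, 3 of 18 best with their own number, and -0.194 to 0.217 in microglia, 5 of 18). With deviations centred within groups of 3 this check cannot exclude a shared culture, so whether the numbers pair libraries is not known. The replicate block moved calls over all genes between fibrils in microglia from 2198 to 752 and in astrocytes from 10 to 0. Among the members it ended those of Ncf4 with Aβ40 in astrocytes (adjusted p = 0.0557) and Sod1 for the Aβ40 difference (0.0546). Of the listed genes named, the block also ended the calls of Prdx1 (0.0708 with Aβ42, 0.0812 with Aβ40) and Txnrd2 (0.0556, Aβ40) in astrocytes and Slc31a1 (0.0627, Aβ40) in microglia. Depth limits Cybb in astrocytes, which had 7 to 22 counts in each fibril-treated library.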

Other observations

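Reads of one member were also set against those of another within each library, which removes library size; since genes differ in length, only changes between groups are read. The ratio of Sod2 to Sod1 reads was 0.335 ± 0.089 (SD, n = 3) in control astrocytes and 2.51 ± 0.22 in control microglia. With Aβ42 it was 8.28 ± 0.089 in astrocytes and 8.44 ± 0.36 in microglia, and with Aβ40 7.97 ± 0.51 and 9.27 ± 1.33. The ranges of the 2 cell types were apart in controls and overlapped with either fibril.

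In microglia the ratio of Cybb to Ncf1 reads was 1.14 ± 0.095 (SD, n = 3) in controls, 0.140 ± 0.026 with Aβ42 and 0.222 ± 0.0058 with Aβ40. The ratio of Ncf4 to Ncf1 reads moved the other way, from 0.265 ± 0.033 to 0.561 ± 0.031 and 0.678 ± 0.029. No test was run on these ratios.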
